A study of Mus musculus with 43 samples.

Results

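The genes described here are 39 mouse macrophage and monocyte genes, chosen by name and read in inguinal white adipose tissue, a subcutaneous fat depot. Of the 39, 37 have a row in the deposited tables of 22622 gene identifiers, 1 (Tyrobp) was not analysed here, and 1 listed name (Lpl2) matched no gene symbol in the reference table. The 37 comprise the growth factor Csf1, its receptor and 8 pan-macrophage markers (10 genes), complement C1q and the Fc receptors with their adaptor (7 genes), 7 markers of resident macrophages, 5 of lipid-associated macrophages, 3 lysosomal cathepsins and 5 monocyte genes.

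Macrophages of fat tissue live among adipocytes, where they take up lipid, dying cells and debris and digest them in lysosomes. Csf1, made largely by stromal cells, keeps them alive through Csf1r on their surface. Long-lived resident cells carry Timd4, Lyve1, Folr2 and Mrc1, monocytes newly arrived from blood carry Ly6c2, and cells loaded with lipid are known for Trem2, Gpnmb, Lgals3, Cd9 and Itgax.

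By the series title, the study asks whether beige fat, the thermogenic fat that appears in this depot near weaning and again in the cold, uses distinct pathways at these times. The data allow 5 comparisons, each in a table of its own. At P28, wild-type C57BL/6J mice kept at 30 C (n = 4) were set against wild-type mice at 22 C (n = 4), and mice with floxed TrkA and Th-cre at 22 C (n = 4) against the same 4 wild-type libraries at 22 C. At P25 and 22 C, mice with floxed Bcl6 and Prx1-cre (n = 8) were set against mice with floxed Bcl6 and no Cre (n = 7). At 9 weeks and 4 C, floxed Bcl6 with Prx1-cre (n = 4) was set against floxed Bcl6 (n = 4). Wild-type mice at 9 weeks and 4 C (n = 4) were set against wild-type mice at 9 weeks and 22 C (n = 4).

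Th-cre is active where tyrosine hydroxylase is made, as in sympathetic neurons, and Prx1-cre in limb and other mesenchyme, so neither is driven by a promoter of macrophages. The TrkA mice were compared with wild-type mice and not with floxed mice lacking Cre. Total Bcl6 was higher in Prx1-cre libraries, with 1517 to 3329 at P25 against 454 to 1395 in floxed libraries, and 9624 to 14493 at 9 weeks against 1607 to 2529. Summed reads of a gene do not show whether its floxed exons are gone, so this level does not check the deletion. Estimated depth ran from 3503000 to 30730000 reads per library. Values are normalized counts, and each comparison has its own scale. No division by transcript length was made here, so levels are compared within a gene only.

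Promoter sequences are shown for 4 genes around which the results turn, namely Lyz2 and C1qb among the markers of macrophages in general and Trem2 and Gpnmb among the lipid-associated genes. Each is the RefSeq sequence on GRCm38.p6, 250 bases before to 50 bases after the annotated start, read 5′ to 3′ on the gene's own strand. Capitals mark 3 motifs searched on both strands, AGGAAGT (an ETS-family core of the kind bound by PU.1, the factor Spi1 encodes), TGANTCA (AP-1) and TCATGTG (the M-box of MITF and TFE factors).
Lyz2 (lysozyme M, gene ID 17105, chr10:117282223-117282522, minus strand): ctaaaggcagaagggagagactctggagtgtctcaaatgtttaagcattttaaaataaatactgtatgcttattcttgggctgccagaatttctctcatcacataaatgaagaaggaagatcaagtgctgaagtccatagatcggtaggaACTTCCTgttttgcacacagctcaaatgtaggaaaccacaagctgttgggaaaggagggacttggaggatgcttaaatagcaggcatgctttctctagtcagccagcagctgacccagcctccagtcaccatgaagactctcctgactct
C1qb (C1q B chain, gene ID 12260, chr4:136886151-136886450, minus strand): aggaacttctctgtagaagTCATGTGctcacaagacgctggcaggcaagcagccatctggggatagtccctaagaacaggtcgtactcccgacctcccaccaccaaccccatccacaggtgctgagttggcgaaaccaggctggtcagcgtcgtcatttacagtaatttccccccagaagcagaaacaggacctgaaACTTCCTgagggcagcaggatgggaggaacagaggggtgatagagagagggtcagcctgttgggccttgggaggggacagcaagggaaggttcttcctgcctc
Trem2 (lipid-sensing receptor, gene ID 83433, chr17:48346151-48346450, plus strand): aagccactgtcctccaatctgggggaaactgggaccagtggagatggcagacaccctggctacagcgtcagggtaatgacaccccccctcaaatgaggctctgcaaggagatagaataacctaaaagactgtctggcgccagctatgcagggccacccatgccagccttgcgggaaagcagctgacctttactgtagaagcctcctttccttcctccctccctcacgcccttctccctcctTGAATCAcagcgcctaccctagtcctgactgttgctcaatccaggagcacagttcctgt
Gpnmb (glycoprotein NMB, gene ID 93695, chr6:49036268-49036567, plus strand): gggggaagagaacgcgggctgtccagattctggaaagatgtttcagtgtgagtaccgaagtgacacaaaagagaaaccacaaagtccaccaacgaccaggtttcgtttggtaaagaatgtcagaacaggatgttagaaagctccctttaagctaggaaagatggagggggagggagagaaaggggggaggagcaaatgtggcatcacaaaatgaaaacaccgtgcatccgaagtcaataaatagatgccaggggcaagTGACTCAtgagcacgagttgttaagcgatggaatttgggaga
In Lyz2 and C1qb the capitals ACTTCCT are AGGAAGT read on the other strand, with the first base at position -100 and -53 from the start. C1qb also holds TCATGTG at position -231. Trem2 and Gpnmb each hold TGANTCA near the start, at position -9 and position 8.

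Of the 37 genes, 30 have a promoter entry. AGGAAGT was present in 10 of them (33.3%), against 9.35% of 32851 mouse promoters of the same length. TGANTCA was present in 5 (16.7%), against 7.81% of all promoters, and TCATGTG in 3 (10%), against 3.77%. The 10 with AGGAAGT were Lyz2, C1qb, C1qc, Fcgr1, Fcgr4, Mrc1, Folr2, Retnla, Ctss and Ly6c2. Each of the 30 genes counts with its first promoter entry, while the shares over all promoters count every entry. These are matches of letters, and binding was not measured.

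Across the 5 comparisons, 10 of the 37 genes passed the threshold (limma adjusted p under 0.05 over all genes tested in a table) in none and 18 in 1. The 10 that passed in none were Fcgr1, Fcgr4, Lyve1, Folr2, Itgax, Cd9, Ctsb, Ly6c2, Plac8 and Cd14. The grid of fold changes shows a block of higher values in the Prx1-cre mice at 9 weeks, with values below 0 for Lyve1, Timd4, Cd9, Ly6c2, Plac8 and Cd14, none of which passed, and a run of calls among the resident markers in the TrkA mice. In whole tissue, a change in the number of macrophages and a change in RNA per macrophage cannot be told apart.

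**Figure D1:**
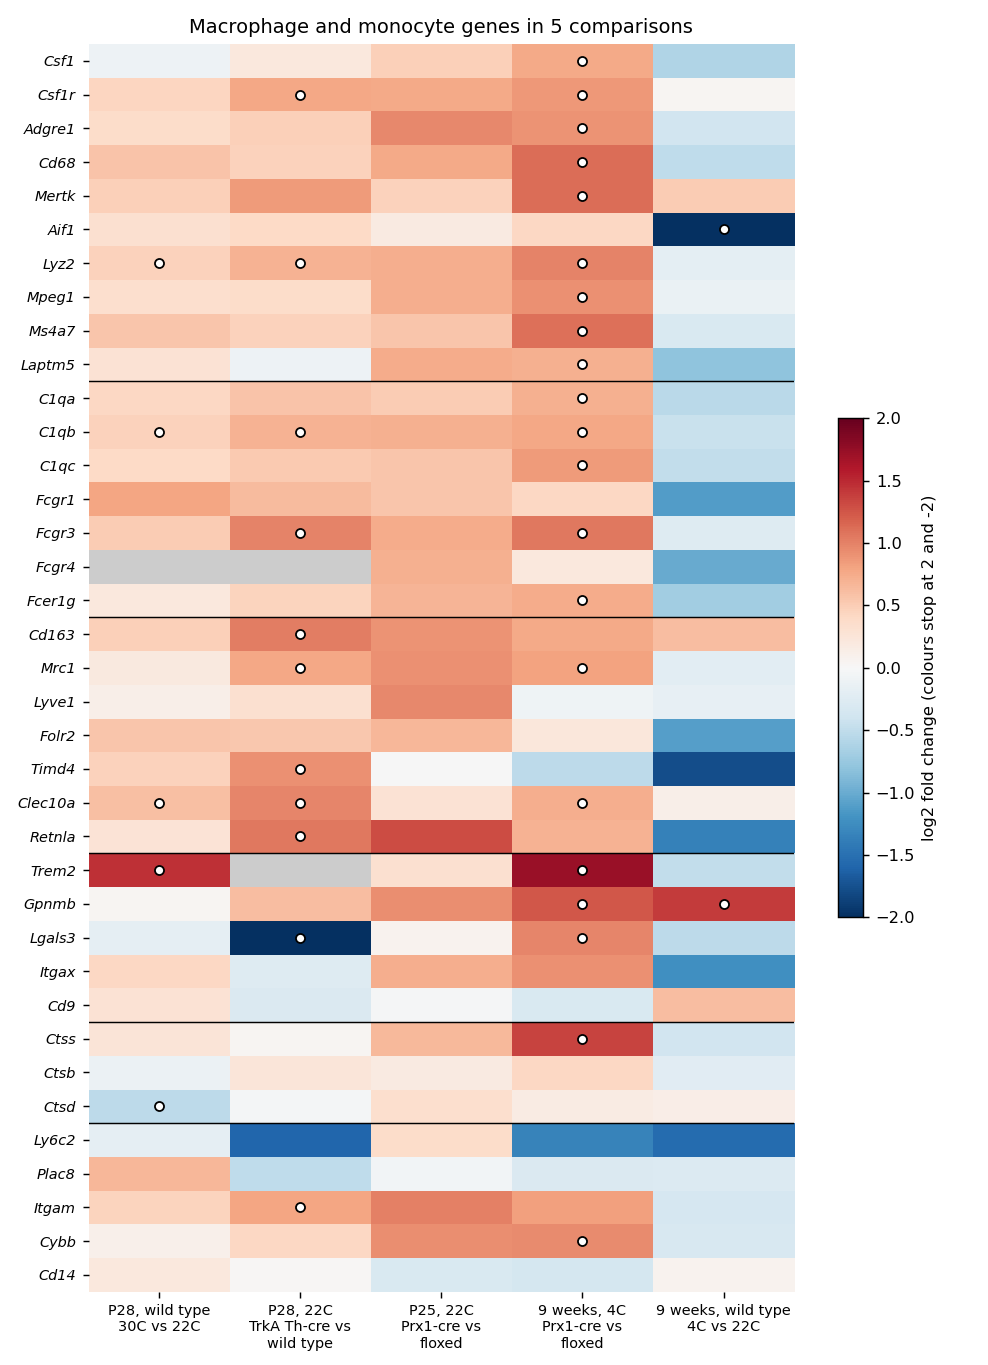
Log2 fold change of the 37 genes (rows, ordered by role, with lines between the groups) in the 5 comparisons (columns), as colour that stops at 2 in either direction. A white dot with a black rim marks a limma adjusted p under 0.05 and grey a gene that was not tested; 21 genes carry a dot in the Bcl6 comparison at 9 weeks and none in the Bcl6 comparison at P25.

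At P28, few of these genes differed between 30 C and 22 C. Lyz2, C1qb, Clec10a and Trem2 rose and Ctsd fell, which is 5 of the 36 genes tested (13.9%), against 4.45% of all 12283 genes tested, of which 1.29% rose and 3.17% fell. Trem2 reached the minimum of 10 in 30 C libraries alone. Without genes that did so in 1 group alone, a count chosen after seeing the data, 4 of 35 were called (11.4%), against 4.42% of 12275 genes. The calls were 1 of 10 growth factor and pan-macrophage genes and 1 of 6 C1q and Fc receptor genes tested. An unadjusted p under 0.05 was reached by 20 of the 36, against 19.4% of all genes. The log2 fold change was above 0 for 31 of the 36, with a median of 0.38, against 51.9% of all genes and a median of 0.01. The groups did not overlap for 10 of the 36, 9 of them higher at 30 C, against 12.9% of all genes. Fcgr4, an IgG receptor, was too low to test.

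Among the growth factor and pan-macrophage genes, Lyz2 read 2571, 2666, 3376 and 2968 at 30 C, against 2189, 1896, 2018 and 2277 at 22 C. Each 30 C library lay above each 22 C library, and the log2 fold change (± SE, in this order throughout) was 0.46 ± 0.10 with a limma adjusted p of 0.0344. Csf1r read 814, 1012, 1102 and 1063 at 30 C, against 781, 844, 546 and 825 at 22 C (0.42 ± 0.15, adjusted p = 0.159). The groups overlapped through the first 30 C library. Adgre1, which encodes the surface antigen F4/80, read 176, 200.5, 204 and 195 at 30 C, against 154, 150.4, 115 and 188 at 22 C (0.37 ± 0.14, adjusted p = 0.184). Csf1, the growth factor, averaged 421 ± 47.6 at 30 C and 451 ± 55.8 at 22 C (SD, n = 4 each, adjusted p = 0.706).

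C1qb, 1 of the 3 chains of C1q, read 680.2, 752, 822 and 804 at 30 C, against 579, 599, 445 and 606 at 22 C (0.46 ± 0.11, limma adjusted p = 0.0495). Its groups did not overlap, although the third 22 C library stood below the other three. Its partner chains had log2 fold changes of 0.42 (C1qa) and 0.39 (C1qc) without passing (adjusted p = 0.211 and 0.282). Among resident markers, the lectin Clec10a read 408, 489.9, 549 and 470.0 at 30 C, against 292, 365, 249 and 364 at 22 C (0.60 ± 0.14, adjusted p = 0.0474). The mannose receptor Mrc1 averaged 712 ± 50.4 at 30 C and 624 ± 90.4 at 22 C (adjusted p = 0.362), and the hyaluronan receptor Lyve1 301 ± 35.8 and 281 ± 59.7 (SD, n = 4 each, adjusted p = 0.761).

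Trem2, the receptor by which macrophages sense lipid, read 24.1, 18.9, 21.4 and 16.8 at 30 C, against 5.90, 8.34, 4.39 and 8.93 at 22 C (1.46 ± 0.32, limma adjusted p = 0.0374). Each 22 C library was below the minimum of 10 and each 30 C library above it, so Trem2 entered the test through its 30 C values alone and had to differ. Gpnmb, another lipid-associated gene, did not pass, with 45.7 ± 7.02 at 30 C and 44.8 ± 9.12 at 22 C (SD, n = 4 each, adjusted p = 0.951). The lysosomal protease Ctsd fell, with 5384, 6211, 5776 and 6556 at 30 C, against 8761, 10148, 6843 and 8971 at 22 C (-0.53 ± 0.12, adjusted p = 0.0477). Ctsd is made by most cells, and the summed thermogenic adipocyte markers, of which 5 of 6 tested fell, read 843 to 1620 at 30 C and 2702 to 4774 at 22 C; their part in the Ctsd result was not tested. Among monocyte genes none passed, and Ly6c2 averaged 94.5 ± 18.3 at 30 C and 116 ± 60.3 at 22 C (SD, n = 4 each, adjusted p = 0.824).

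No call of this comparison held when each library was left out in turn. The number of genes called was 0 without 30 C library 3 or 4 or 22 C library 1, 2 or 4, 1 without the second 30 C library, 2 without the first 30 C library and 3 without the third 22 C library. Libraries with high Xist, the RNA of the inactive X of female cells, were the first 3 at 30 C and the last 2 at 22 C. Of 64 genes tested from 5 lists of the wider myeloid programme, 3 rose and 2 fell, against 1.29% and 3.17% of all genes. Siglec1, a sialic acid receptor of macrophages, averaged 596 ± 121 at 30 C and 343 ± 85.9 at 22 C, and the signalling kinase Syk 927 ± 73.3 and 676 ± 30.4 (SD, n = 4 each, limma adjusted p = 0.0498 and 0.0108). The fatty acid carriers Cd36 and Fabp5 fell by 0.49 and 0.99 on the log2 scale (adjusted p = 0.0168 and 0.0498); adipocytes also make both.

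Summed pan-leukocyte markers read 7276 to 9107 at 30 C and 6323 to 8093 at 22 C, and T and NK cell markers 2563 to 3486 and 2189 to 2984. The summed skeletal muscle markers read 349 to 18450 at 30 C and 339 to 1042 at 22 C, and mature adipocyte markers, of which 1 of 6 rose, 77284 to 89299 and 50036 to 66178. The mean log2 level of the mature adipocyte markers overlapped, with 12.52 to 12.82 at 30 C and 12.49 to 12.86 at 22 C. The part of these cells in the differences was not tested.

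Mice with floxed TrkA and Th-cre, set against the same 4 wild-type libraries, had higher levels of resident and of other macrophage markers. Of 35 genes tested, 10 rose and 1 fell (31.4%), against 2.66% of 11899 genes, of which 1.34% rose and 1.32% fell. Resident markers gave 5 of the 10 rises (Timd4, Mrc1, Cd163, Clec10a and Retnla, of 7 tested, median log2 fold change 0.91). The rest were Csf1r and Lyz2, C1qb and Fcgr3, and Itgam, and Lgals3 fell. The groups did not overlap for 16 of the 35 genes (45.7%), 15 of them higher in TrkA Th-cre mice, against 11.2% of all genes. An unadjusted p under 0.05 was reached by 21 of the 35, against 19.2% of all genes. The log2 fold change was above 0 for 28 of the 35, against 49.1% of all genes, and its median was 0.46 over the 35 and -0.01 over all genes. A wild-type library's values in the temperature table are, at the median over genes, 1.13 to 1.14 times those here. In each library 54.0 to 54.7% of genes lay within 0.1% of that median ratio, so the 2 tables differ by more than 1 common scale.

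Timd4, a receptor for phosphatidylserine on dying cells and a mark of long-lived resident macrophages, read 390.4, 359.8, 335 and 281 in TrkA Th-cre mice, against 183, 193, 172 and 174 in wild-type mice. The groups stood well apart (0.91 ± 0.11 on the log2 scale, limma adjusted p = 0.00345). Mrc1 read 1059.7, 819, 933 and 941 in TrkA Th-cre mice, against 546, 613, 442 and 595 in wild-type mice (0.78 ± 0.12, adjusted p = 0.0122). Clec10a read 529, 392.3, 639 and 683 in TrkA Th-cre mice, against 259, 321, 222 and 322 in wild-type mice (0.98 ± 0.18, adjusted p = 0.0253). Neither gene's groups overlapped. Retnla, a secreted resistin-like protein, read 859, 563, 926 and 1307 in TrkA Th-cre mice, against 434, 392.2, 368 and 509.9 in wild-type mice (1.05 ± 0.22, adjusted p = 0.0350). Cd163, the scavenger receptor for haemoglobin, read 630.05, 642, 864 and 469 in TrkA Th-cre mice, against 279, 396, 209 and 405 in wild-type mice (1.03 ± 0.23, adjusted p = 0.0472). The groups stood apart for both.

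The other 2 resident markers did not pass. Lyve1 read 423, 351, 358 and 163 in TrkA Th-cre mice, against 267, 305, 185 and 231 in wild-type mice (0.33 ± 0.27, limma adjusted p = 0.561). The fourth TrkA Th-cre library lay below every wild-type library. Folr2, a folate receptor, averaged 320.3 ± 49.7 in TrkA Th-cre mice and 226 ± 62.6 in wild-type mice (SD, n = 4 each, adjusted p = 0.205).

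Csf1r read 1105, 1084, 1243 and 1044 in TrkA Th-cre mice, against 691, 741, 486 and 728 in wild-type mice (0.77 ± 0.13, limma adjusted p = 0.0187). Lyz2 read 3098, 2739, 3284 and 2869 in TrkA Th-cre mice, against 1929.9, 1658, 1788 and 2000.4 in wild-type mice (0.70 ± 0.10, adjusted p = 0.00742). In both, the lowest TrkA Th-cre library exceeded the highest wild-type library. The ligand Csf1 averaged 468 ± 124 in TrkA Th-cre mice and 396 ± 48.1 in wild-type mice (SD, n = 4 each, adjusted p = 0.529). Adgre1 averaged 186 ± 33.4 and 133 ± 26.1, with overlap (adjusted p = 0.178). Set against Csf1r in the same library, Mrc1 had a log2 ratio of -0.26 ± 0.18 in TrkA Th-cre mice and -0.26 ± 0.09 in wild-type mice. Timd4 had -1.72 ± 0.20 and -1.85 ± 0.25 (SD, n = 4 each). The groups overlapped for these ratios and for those of Trem2 and Gpnmb, but not for those of Lgals3 and Ly6c2. Since Csf1r was higher in each TrkA Th-cre library, a gene with no change would have a lower ratio there. The Ly6c2 values themselves overlapped between the groups and went down to 3.63 in TrkA Th-cre mice, below the minimum of 10. No test was run on the ratios, and the share of all genes with separate ratios was not computed.

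Fcgr3, the low-affinity IgG receptor of macrophages, read 288, 229.9, 324 and 228 in TrkA Th-cre mice, against 131, 139, 104 and 166 in wild-type mice (0.99 ± 0.16, limma adjusted p = 0.0169). C1qb read 717, 705, 977 and 771 in TrkA Th-cre mice, against 511, 523, 394 and 533 in wild-type mice (0.69 ± 0.13, adjusted p = 0.0264). Itgam, the integrin chain CD11b shared by monocytes, macrophages and granulocytes, read 258, 252, 273 and 225 in TrkA Th-cre mice, against 179.7, 156, 101 and 154 in wild-type mice (0.79 ± 0.16, adjusted p = 0.0351). None of the 3 overlapped, and the summed neutrophil markers, a further source of Itgam, read 117 to 228 in TrkA Th-cre mice and 99 to 160 in wild-type mice, with 0 of 4 called. Ly6c2 read 72.0, 3.63, 36.3 and 75.7 in TrkA Th-cre mice, against 58.2, 90.4, 180.0 and 79.2 in wild-type mice, a spread within groups as wide as the difference (-1.59 ± 0.79, adjusted p = 0.306).

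Of 4 lipid-associated genes tested, 1 passed, and it fell. This was Lgals3, which encodes galectin-3 and read 149, 174, 202 and 193 in TrkA Th-cre mice, against 424, 664, 1524 and 993 in wild-type mice (-2.17 ± 0.32, limma adjusted p = 0.0107). Epithelia also make galectin-3, and the summed epithelial markers read 88, 139, 1770 and 59 in the same TrkA Th-cre libraries and 61, 1208, 6492 and 2974 in the wild-type libraries. In wild-type libraries Lgals3 and these markers stand in 1 order; in TrkA Th-cre libraries the third is highest for both, and the part of epithelium in the fall was not tested. Gpnmb averaged 64.0 ± 22.6 in TrkA Th-cre mice and 39.5 ± 8.05 in wild-type mice (SD, n = 4 each, adjusted p = 0.293). Trem2 was too low to test, with 11.8, 7.27, 23.2 and 18.4 in TrkA Th-cre mice and 5.20, 7.29, 3.89 and 7.84 in wild-type mice.

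**Figure D2:**
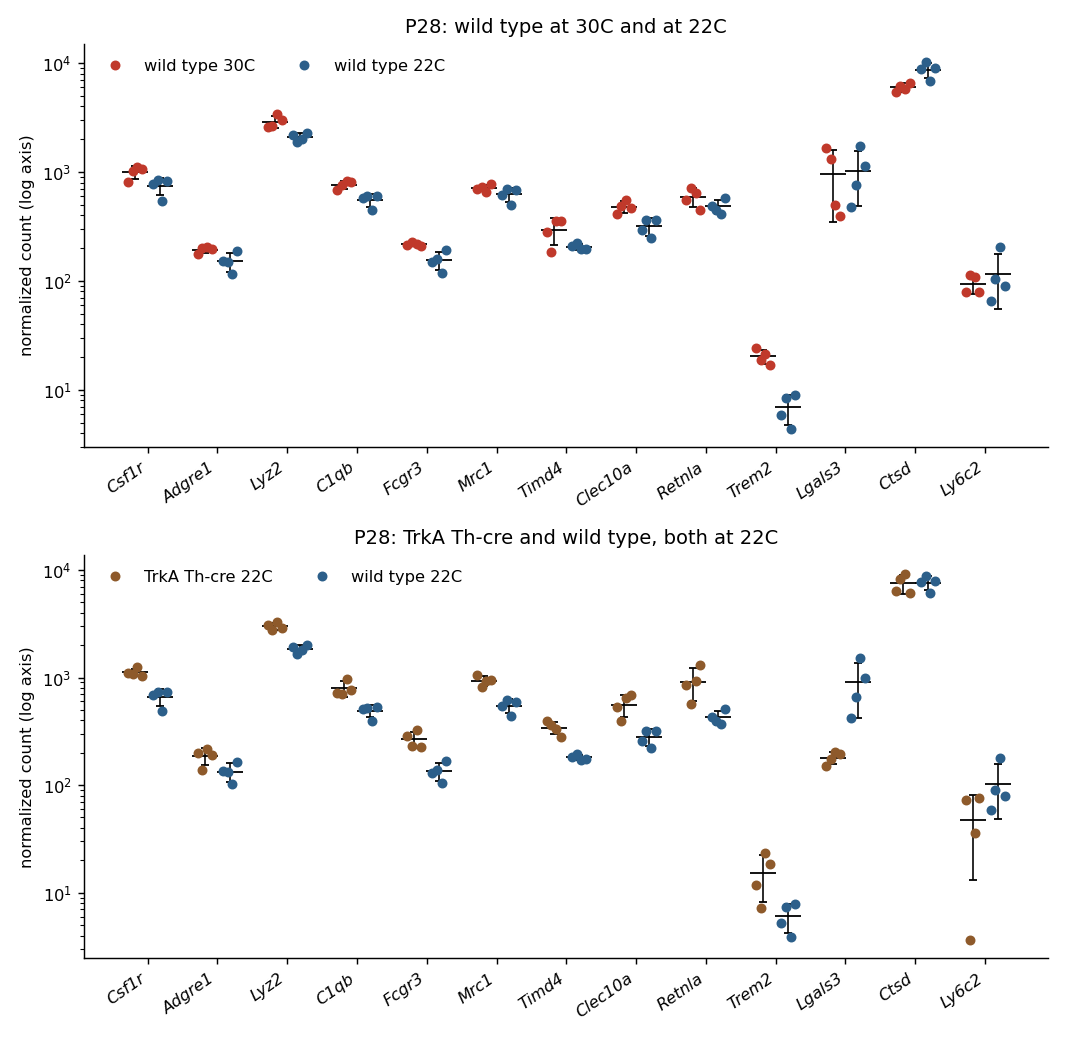
Normalized counts (log axis) of 13 genes at P28, each point a library and each bar the mean with its SD (n = 4), for 30 C beside 22 C and for TrkA Th-cre beside wild type. The Timd4, Mrc1 and Lyz2 points of TrkA Th-cre lie above all wild-type points, while those of Lgals3 lie below.

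Lyz2, Mrc1, Timd4 and Lgals3 passed in all 8 fits that leave out 1 library, and the other 7 were lost in some. Fcgr3 passed in 6 of the 8, Csf1r in 5, Clec10a in 4, C1qb, Retnla and Itgam in 3 each, and Cd163 in 1. The number called ran from 4 without the first TrkA Th-cre library, through 5 without the third TrkA Th-cre or the second wild-type library and 6 without the fourth wild-type library, to 14 without the fourth TrkA Th-cre library. Without it Gpnmb passed too, at 0.93 on the log2 scale (limma adjusted p = 0.0261). Xist was high in 1 TrkA Th-cre and 2 wild-type libraries. Of 63 further myeloid genes tested, 4 rose and 1 fell, against 1.34% and 1.32% of all genes. The 4 that rose included the transcription factor Maf, at 424 ± 45.2 in TrkA Th-cre mice and 279 ± 30.8 in wild-type mice, and Siglec1, at 610 ± 119 and 301 ± 73.8 (SD, n = 4 each, adjusted p = 0.0253 and 0.0231).

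Summed markers of other leukocytes overlapped between the TrkA groups. Pan-leukocyte markers read 4381 to 8435 in TrkA Th-cre mice and 5539 to 7187 in wild-type mice, and B cell markers 2457 to 5476 and 3750 to 5184. Skeletal muscle markers did not overlap, with 1226 to 6794 in TrkA Th-cre mice and 303 to 932 in wild-type mice, and 2 of 10 rose. Mature adipocyte markers summed to 61995 to 80427 in TrkA Th-cre mice and 44324 to 58119 in wild-type mice, although the 1 of 6 that passed fell. Their mean log2 levels overlapped, with 12.42 to 12.6 in TrkA Th-cre mice and 12.31 to 12.67 in wild-type mice. Thermogenic adipocyte markers, of which 3 of 6 fell, had a mean log2 level of 6.16 to 7.19 in TrkA Th-cre mice and 7.6 to 8.13 in wild-type mice, without overlap. Their sums did overlap, with 1262 to 2515 in TrkA Th-cre mice and 2395 to 4209 in wild-type mice. Progenitor markers did not overlap on the mean log2 scale either, with 10.60 to 10.75 in TrkA Th-cre mice and 10.08 to 10.54 in wild-type mice, and 0 of 8 passed. The progenitor sums overlapped, with 26187 to 38334 in TrkA Th-cre mice and 16071 to 39799 in wild-type mice. The part of these cells in the rises was not tested.

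At P25, floxed Bcl6 mice with Prx1-cre had higher average levels of most of these genes than floxed mice without Cre, but libraries of both groups spanned the same range. None of the 37 genes passed in limma's test, against 3.53% of 12738 genes. At an unadjusted p under 0.05 there were 5 of the 37, against 15% of all genes. The log2 fold change was above 0 for 33 of the 37, against 50.9% of all genes. Its median was 0.67 over the 37 and 0.00 over all genes. No gene of the 37 separated the groups, against 1.3% of all genes. Among the further myeloid genes only Acp5 passed, against 3.53% of all genes. It fell, with 3989 ± 887 in Prx1-cre mice and 6094.5 ± 1097 in floxed mice (SD, n = 8 and 7, limma adjusted p = 0.0312).

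Csf1r had a lowest, median and highest value of 945, 2020.4 and 4648 in Prx1-cre mice, against 526.4, 1079.8 and 4634 in floxed mice (0.76 ± 0.48, limma adjusted p = 0.511). Both groups thus reached the same upper end. Lyz2 had 1966, 3410.5 and 9320.4 in Prx1-cre mice, against 914, 1909.8 and 9272 in floxed mice (0.73 ± 0.48, adjusted p = 0.541). Adgre1 had 323, 606 and 1295 in Prx1-cre mice, against 180.1, 205 and 1337 in floxed mice (0.97 ± 0.48, adjusted p = 0.361). Most floxed libraries sat near their lower end for Adgre1, and libraries M2 and F4 stood far above them with 1040 and 1337.

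Resident markers were as spread. Mrc1 had a lowest, median and highest value of 839.7, 1905 and 4384 in Prx1-cre mice, against 370.2, 734 and 4239.6 in floxed mice (0.91 ± 0.54, limma adjusted p = 0.475). Lyve1 had 249, 474 and 1789 in Prx1-cre mice, against 88.0, 256 and 1004 in floxed mice (0.96 ± 0.57, adjusted p = 0.483). Retnla had the largest difference of the list, with 1308, 2728 and 4054 in Prx1-cre mice, against 398, 1096 and 3194 in floxed mice (1.30 ± 0.42, adjusted p = 0.112).

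Gpnmb came closest to the threshold, with 109, 155 and 249 in Prx1-cre mice, against 32.9, 94.3 and 139 in floxed mice (0.92 ± 0.27, limma adjusted p = 0.0773). It passed when floxed library M2 was left out (1.05, adjusted p = 0.0436), and 1 gene also passed without floxed library F4. Trem2 had 18.1, 33.0 and 109 in Prx1-cre mice, against 5.39, 34.9 and 151 in floxed mice (0.32 ± 0.66, adjusted p = 0.882). Lgals3 and Cd9 differed by 0.07 and -0.02 on the log2 scale (adjusted p = 0.896 and 0.971). Csf1 had 506, 879 and 1239 in Prx1-cre mice, against 324, 581 and 1092 in floxed mice (adjusted p = 0.397), and Ly6c2 had 19.0, 44.5 and 77.6, against 4.57, 49.0 and 109 (adjusted p = 0.835).

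The spread within groups was wide for some genes and narrow for others. The highest library exceeded the lowest 4.92-fold in Prx1-cre and 8.80-fold in floxed mice for Csf1r, and 6.02-fold and 27.9-fold for Trem2. For Mertk, a receptor for the uptake of dying cells, it was 1.99-fold and 1.74-fold, and for Lgals3 1.72-fold and 1.96-fold. Summed growth factor and pan-macrophage genes were highest in Prx1-cre libraries F2, F3 and F4, at 21372, 16785 and 18609, and in floxed libraries F4 and M2, at 21282 and 17157. The other libraries read 6088 to 9908 in Prx1-cre mice and 3022 to 6920 in floxed mice.

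Markers of other cells of the stroma were high in the same libraries. The 8 summed markers of mesenchymal progenitors read 101609, 91423 and 126155 in Prx1-cre F2, F3 and F4 and 147497 and 167646 in floxed F4 and M2, while the remaining libraries read 39105 to 84747 in Prx1-cre mice and 17628 to 37707 in floxed mice. Mast cell markers read 687 to 775 in those 3 Prx1-cre libraries and 1075 and 1098 in those 2 floxed libraries. Prx1-cre M1 also had 771, with 84747 for progenitor markers but 9908 for macrophage genes. Summed thermogenic adipocyte markers, of which 6 of 7 fell, read 2041 to 5158 in Prx1-cre mice and 8407 to 22037 in floxed mice. The part of these cells in the results was not tested. Within libraries lettered M and within those lettered F, which have low and high Xist, 0 of the 37 genes passed in each, against 0.88% and 0.146% of all genes.

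**Figure D3:**
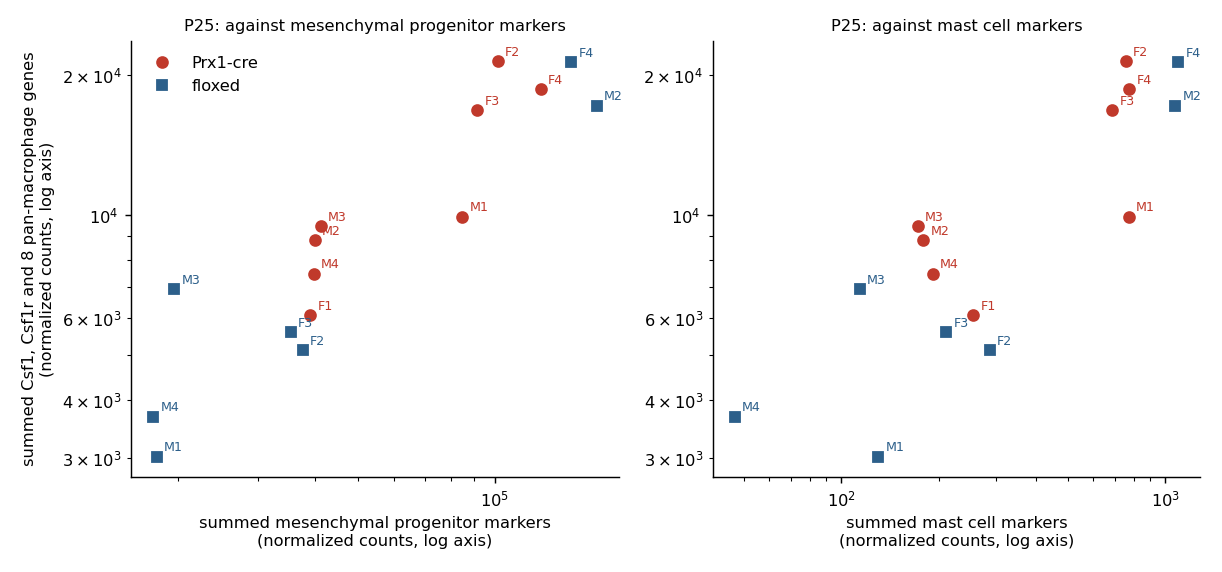
Summed normalized counts of the 10 growth factor and pan-macrophage genes at P25 (vertical axis) against the summed markers of mesenchymal progenitors and of mast cells (horizontal axes), with 1 labelled point per library for 8 Prx1-cre and 7 floxed libraries. On the vertical axis Prx1-cre F2 and F4 stand at 21372 and 18609, and floxed M2 and F4 at 17157 and 21282.

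At 9 weeks and 4 C, the same genotypes differed across most of the list. In Prx1-cre mice 21 of the 37 genes rose and none fell (56.8%), against 14.5% of 13496 genes, of which 9.01% rose and 5.46% fell. The groups did not overlap for 22 genes, each higher in Prx1-cre mice (59.5%), against 22.3% of all genes in either direction and 12.2% that were higher. The rises took in 9 of 10 growth factor and pan-macrophage genes, 5 of 7 C1q and Fc receptor genes, 3 of 5 lipid-associated genes, 2 of 7 resident markers, 1 of 3 cathepsins and 1 of 5 monocyte genes. An unadjusted p under 0.05 was reached by 26 of the 37, against 29.9% of all genes. The log2 fold change was above 0 for 31, against 47.9% of all genes, and its median was 0.76 over the 37 and -0.02 over all genes.

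Csf1, the growth factor itself, read 1948, 1957, 1246 and 1065 in Prx1-cre mice, against 929.8, 904, 719 and 1001 in floxed mice (0.76 ± 0.21, limma adjusted p = 0.0446). Its groups did not overlap, but the call held in 2 of the 8 fits that leave out a library, with an adjusted p of 0.114 without the first Prx1-cre library. The receptor Csf1r read 3276, 2939, 3099.7 and 4391 in Prx1-cre mice, against 2140.3, 1671, 1668 and 1950.1 in floxed mice (0.87 ± 0.14, adjusted p = 0.00519). Adgre1 read 588, 639, 639.7 and 839 in Prx1-cre mice, against 416, 342, 321 and 368 in floxed mice (0.89 ± 0.13, adjusted p = 0.00385). For both genes, the fourth Prx1-cre library was the highest of the 8.

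Cd68, a glycoprotein of macrophage endosomes, read 672, 804, 744 and 947 in Prx1-cre mice, against 364, 366, 326 and 389 in floxed mice (1.12 ± 0.11, limma adjusted p = 0.00103). Mertk read 1637, 1257, 1486 and 1915 in Prx1-cre mice, against 564, 703, 933 and 726 in floxed mice (1.11 ± 0.17, adjusted p = 0.00465). Lyz2 read 6188, 6337, 7939.6 and 13213 in Prx1-cre mice, against 4713, 3463, 3213 and 4931 in floxed mice (1.00 ± 0.25, adjusted p = 0.0333). Its call was lost in 3 of the 8 fits, with an adjusted p of 0.0935 without the second floxed library. Mpeg1, Ms4a7 and Laptm5 rose as well, by 0.91, 1.11 and 0.71 on the log2 scale, and Aif1, at 82.3 ± 17.99 in Prx1-cre mice and 62.8 ± 20.5 in floxed mice (SD, n = 4 each), did not pass (adjusted p = 0.346).

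The 3 chains of C1q rose by 0.72 (C1qa), 0.78 (C1qb) and 0.85 (C1qc) on the log2 scale. Fcgr3 read 934, 854, 1167 and 1522 in Prx1-cre mice, against 639, 443, 487 and 548 in floxed mice (1.06 ± 0.19, limma adjusted p = 0.00858). Fcer1g, the signalling chain of the Fc receptors, read 525, 578, 557 and 584 in Prx1-cre mice, against 355, 303, 339 and 338 in floxed mice (0.75 ± 0.08, adjusted p = 0.00120). Its groups stood well apart. Fcgr1 and Fcgr4 had log2 fold changes of 0.41 and 0.20 without passing (adjusted p = 0.205 and 0.655).

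The lipid-associated genes had the largest difference of the list. Trem2 read 162, 219.9, 117 and 147 in Prx1-cre mice, against 46.6, 36.7, 42.8 and 67.0 in floxed mice (1.72 ± 0.24, limma adjusted p = 0.00365). Gpnmb read 1290.1, 1516, 1204 and 1493 in Prx1-cre mice, against 551, 467, 852 and 517 in floxed mice (1.24 ± 0.18, adjusted p = 0.00393). Lgals3 read 3653, 4348, 2872 and 3511 in Prx1-cre mice, against 2082, 1964, 1218 and 2107 in floxed mice (0.98 ± 0.19, adjusted p = 0.0126). None of the 3 overlapped between genotypes. Itgax, the integrin chain CD11c, also separated the groups, with 138, 279, 105 and 122 in Prx1-cre mice and 78.4, 84.1, 87.3 and 65.5 in floxed mice, and did not pass (0.92 ± 0.29, adjusted p = 0.0675). The tetraspanin Cd9 averaged 2175 ± 445 in Prx1-cre mice and 2876 ± 1141 in floxed mice (SD, n = 4 each, adjusted p = 0.556).

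Resident markers were divided. Mrc1 read 2264, 1843, 1917 and 2397 in Prx1-cre mice, against 1233, 1149, 1118 and 1272 in floxed mice (0.81 ± 0.10, limma adjusted p = 0.00191). Clec10a read 3198, 2247, 2917 and 2905 in Prx1-cre mice, against 1716, 1723, 1412 and 1946 in floxed mice (0.73 ± 0.13, adjusted p = 0.00846). Lyve1 read 289.5, 249, 429 and 713 in Prx1-cre mice, against 602, 304, 313 and 483 in floxed mice, with the groups interleaved (-0.08 ± 0.35, adjusted p = 0.899). Timd4 averaged 39.0 ± 10.1 in Prx1-cre mice and 57.4 ± 18.2 in floxed mice (-0.53 ± 0.29, adjusted p = 0.256), and Folr2 543 ± 78.4 and 481 ± 158 (SD, n = 4 each, adjusted p = 0.555). Cd163 and Retnla did not pass either, with higher log2 fold changes of 0.76 ± 0.22 and 0.69 ± 0.44. Their medians were 2406 and 5773.5 in Prx1-cre mice, against 1372 and 3212 in floxed mice, and the groups overlapped for both.

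Among proteases, Ctss, the cathepsin most typical of antigen-presenting cells, read 1892, 1849, 1715 and 2365 in Prx1-cre mice, against 901, 739, 618 and 827 in floxed mice (1.34 ± 0.14, limma adjusted p = 0.00103). The broadly made Ctsb and Ctsd had log2 fold changes of 0.42 and 0.17 and did not pass (adjusted p = 0.0946 and 0.521). Cybb, the membrane subunit of the phagocyte oxidase, read 647, 527, 470.1 and 748 in Prx1-cre mice, against 348, 285, 303 and 291 in floxed mice (0.94 ± 0.15, adjusted p = 0.00521). Ly6c2 read 14.5, 7.22, 5.04 and 21.0 in Prx1-cre mice, against 20.9, 28.7, 49.9 and 20.2 in floxed mice (-1.34 ± 0.47, adjusted p = 0.0924). Plac8 and Cd14 also had log2 fold changes below 0, at -0.28 and -0.36 (adjusted p = 0.693 and 0.419).

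**Figure D4:**
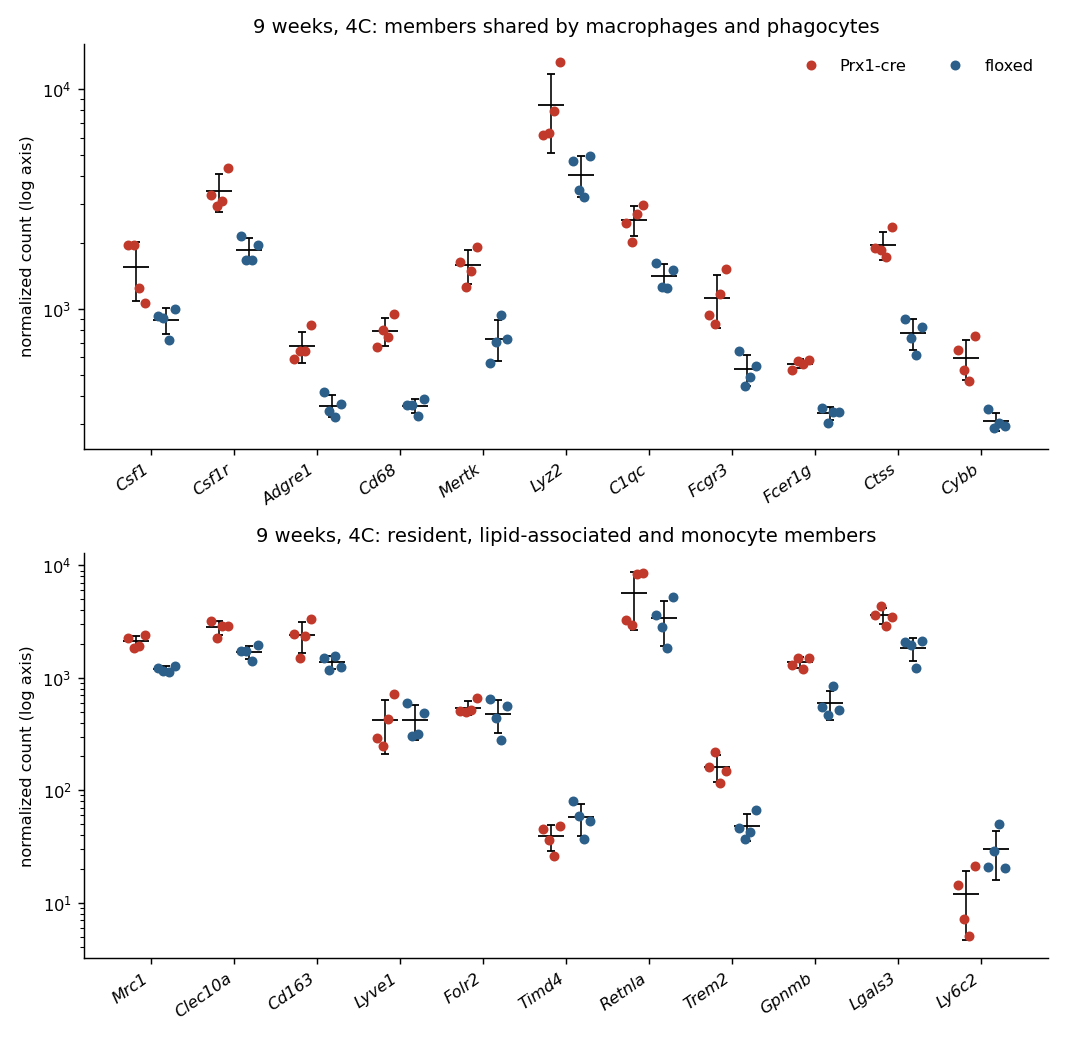
Normalized counts (log axis) at 9 weeks and 4 C in the 4 Prx1-cre libraries beside the 4 floxed libraries, each point a library and each bar the mean with its SD. The Trem2, Gpnmb, Ctss and Mrc1 points of the 2 genotypes do not overlap, while those of Lyve1 are interleaved.

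Of 6 genes each set against Csf1r in the same library, Timd4 and Ly6c2 had ratios that did not overlap between these genotypes. The log2 ratio of Trem2 averaged -4.42 ± 0.51 in Prx1-cre mice and -5.27 ± 0.30 in floxed mice (SD, n = 4 each). That of Timd4 averaged -6.44 ± 0.30 in Prx1-cre mice and -5.04 ± 0.35 in floxed mice, and that of Ly6c2 -8.21 ± 0.65 and -6.00 ± 0.73. The Timd4 ratios ran from -6.83 to -6.14 in Prx1-cre mice and from -5.47 to -4.71 in floxed mice. Those of Trem2 overlapped, with -4.89 to -3.73 in Prx1-cre mice and -5.49 to -4.84 in floxed mice. The ratios of the other 3 genes overlapped too, with averages of -0.69 ± 0.14 in Prx1-cre mice and -0.63 ± 0.11 in floxed mice for Mrc1, -1.30 ± 0.25 and -1.67 ± 0.47 for Gpnmb, and 0.07 ± 0.38 and -0.04 ± 0.30 for Lgals3. Csf1r itself was higher in each Prx1-cre library than in each floxed library. A gene with no change would therefore have a lower ratio in Prx1-cre mice. Ly6c2 values went down to 5.04 in Prx1-cre mice, below the minimum of 10. These ratios are a description and were given no test, and the share of all genes with separate ratios was not computed.

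Of the 21 genes that rose, 16 held in each fit that left out 1 library. Csf1, Lyz2, Laptm5, C1qa and C1qb were lost in some, and the number called ran from 16 without the second floxed library to 25 without the third. The third floxed library had 644089 for the summed skeletal muscle markers, where the other 3 floxed libraries had 2754 to 26575 and the Prx1-cre libraries 196 to 5563. Xist was high in each of the 8 libraries.

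Of 66 further myeloid genes tested, 26 rose and 4 fell, against 9.01% and 5.46% of all genes. The 4 with the smallest p encode surface receptors. Stab1 averaged 3873 ± 158 in Prx1-cre mice and 2174 ± 122 in floxed mice (limma adjusted p = 0.000291), and Cd84, a receptor of the SLAM family, 351 ± 54.3 and 164 ± 21.8 (adjusted p = 0.00280). Clec4n, which encodes Dectin-2, averaged 46.9 ± 10.7 in Prx1-cre mice and 14.7 ± 1.77 in floxed mice, and Cd209d 248 ± 33.7 and 117 ± 18.7 (SD, n = 4 each, adjusted p = 0.00341 and 0.00386). Spi1, which encodes PU.1, rose by 0.92 ± 0.17 on the log2 scale (adjusted p = 0.00870). The 4 that fell were Acp5, Lipa, Plin2 and Cebpb, and adipocytes also make the last 3.

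Markers of other immune cells were read alongside. Summed pan-leukocyte markers read 2045 to 3042 in Prx1-cre mice and 1605 to 1991 in floxed mice, with 2 of 6 risen, and dendritic cell markers, which include MHC class II genes that macrophages share, 14477 to 19621 and 11778 to 13033, with 2 of 8 risen. T and NK cell markers read 239 to 318 in Prx1-cre mice and 276 to 385 in floxed mice, and B cell markers 58 to 83 and 57 to 192. Neutrophil markers, of which 1 of 3 tested rose, read 1099 to 2526 in Prx1-cre mice and 457 to 2718 in floxed mice. Summed thermogenic adipocyte markers, all 7 of which fell, read 10902 to 40118 in Prx1-cre mice and 81245 to 127272 in floxed mice, and progenitor markers 30952 to 37847 and 22066 to 34086. The part of these cells in the macrophage results was not tested.

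The effect of Prx1-cre at 9 weeks and 4 C was not shown to differ from that at P25 and 22 C for any of the 37 genes. A test of the difference of the log2 fold changes, adjusted over 12487 genes, passed for 0 of them and for 0.304% of all genes. At an unadjusted p under 0.05 there were 3, Lgals3 (difference 0.92 ± 0.25, SE, adjusted p = 0.162), Mertk (0.64 ± 0.25, adjusted p = 0.384) and Ly6c2 (-1.72 ± 0.74, adjusted p = 0.457). For Trem2 the difference was 1.40 ± 0.70 (adjusted p = 0.574). Age, temperature and table change together between the 2 comparisons and cannot be told apart.

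In adult wild-type mice, few of the genes passed the test for cold. Gpnmb rose and Aif1 fell at 4 C, which is 2 of 37 genes (5.41%), against 4.47% of 12118 genes, of which 2.03% rose and 2.44% fell. An unadjusted p under 0.05 was reached by 10 of the 37, against 23.8% of all genes. The log2 fold change was above 0 for 8 of the 37, against 52.7% of all genes, with a median of -0.38 over the 37 and of 0.02 over all genes. The groups did not overlap for 5 genes (13.5%), against 17.3% of all genes.

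Gpnmb read 555, 299, 437 and 343 at 4 C, against 96.2, 133, 188 and 208 at 22 C (1.40 ± 0.28, limma adjusted p = 0.0374). Each library at 4 C lay above each at 22 C. Aif1, the actin-binding protein known as Iba1, read 16.1, 11.0, 22.9 and 25.7 at 4 C, against 81.9, 58.9, 123 and 61.4 at 22 C (-2.05 ± 0.34, adjusted p = 0.0242). Its groups were likewise apart. When single libraries were left out, Gpnmb passed in 1 and Aif1 in 4 of the 8 fits, and the number called was 0 without 22 C library 1, 2 or 4 or 4 C library 1.

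Csf1r read 1340.1, 666, 1516 and 1134 at 4 C, against 670.4, 598, 2029 and 1716 at 22 C (0.03 ± 0.44, limma adjusted p = 0.974). The range of the 22 C libraries enclosed that of the 4 C libraries. Adgre1 read 276, 103, 261 and 233 at 4 C, against 136, 129, 539 and 533 at 22 C (-0.38 ± 0.56, adjusted p = 0.732). Lyve1 read 523, 140.4, 286 and 329 at 4 C, against 137, 148, 779 and 688 at 22 C (-0.16 ± 0.66, adjusted p = 0.908). Lyz2 averaged 2047 ± 592 at 4 C and 2567 ± 1469 at 22 C, and Mrc1 843 ± 274 and 1069.7 ± 619.6 (SD, n = 4 each, adjusted p = 0.832 and 0.820).

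Trem2 read 9.94, 9.54, 30.1 and 18.2 at 4 C, against 9.96, 12.6, 52.7 and 32.5 at 22 C (-0.49 ± 0.60, limma adjusted p = 0.672), with the groups interleaved. Retnla read 793, 518, 1225 and 1204 at 4 C, against 1341, 1273, 4158 and 3602 at 22 C, and Lgals3 464, 451, 571 and 726, against 792, 796, 771 and 761. Neither gene's groups overlapped and neither passed (adjusted p = 0.120 and 0.0833). Ly6c2 read 6.38, 14.5, 9.23 and 7.67 at 4 C, against 36.3, 15.3, 99.8 and 10.8 at 22 C (-1.54 ± 0.66, adjusted p = 0.202). Csf1 averaged 424 ± 88.0 at 4 C and 658 ± 201 at 22 C (SD, n = 4 each, adjusted p = 0.175).

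In both groups the first 2 libraries have low and the last 2 high Xist, so the comparison could be made with Xist as a covariate and within each class, as alternatives chosen after seeing the data. With the covariate 8 of the 37 genes passed, against 18.4% of all genes, of which 10.1% rose and 8.29% fell. Gpnmb rose (1.40, limma adjusted p = 0.0105), and Csf1, Aif1, Fcer1g, Timd4, Retnla, Lgals3 and Itgax fell, by 0.61 for Csf1 (adjusted p = 0.0203), 1.77 for Timd4 (adjusted p = 0.0202) and 1.35 for Retnla (adjusted p = 0.00381) on the log2 scale. Among libraries with low Xist alone (n = 2 each) 6 passed, against 8.84% of all genes (4.66% rose and 4.17% fell), with Gpnmb (1.84) and Cd163 (1.53) up and Aif1, Retnla, Lgals3 and Itgax down.

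Among libraries with high Xist alone (n = 2 each) 10 of the 37 genes passed, against 3.18% of all genes, of which 1.65% rose and 1.53% fell. Gpnmb (0.96) and Cd9 (0.70) rose, and Csf1, Adgre1, C1qc, Fcer1g, Lyve1, Folr2, Timd4 and Retnla fell. Timd4 fell there by 2.34, Folr2 by 1.77 and Lyve1 by 1.25 on the log2 scale (limma adjusted p = 0.0323, 0.0418 and 0.0252). A test of the difference of the cold effect between the classes passed for 0 of the 37 genes and for 0 of 12118 genes, so the 2 classes were not shown to differ. Gpnmb rose and Retnla fell in both classes.

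**Figure D5:**
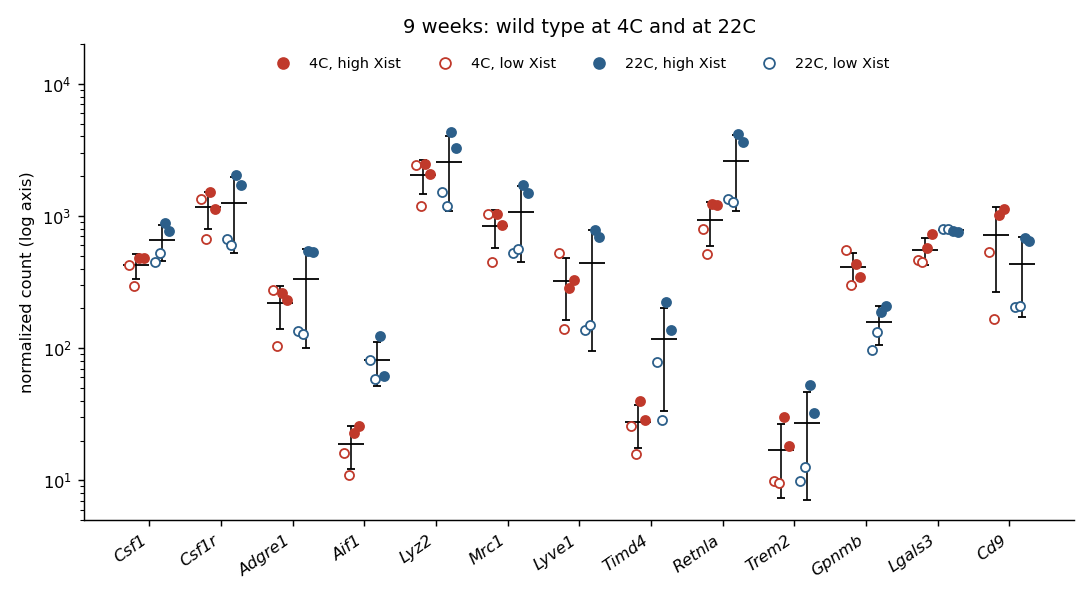
Normalized counts (log axis) of 13 genes in wild-type mice at 9 weeks, 4 C beside 22 C, each point a library (filled for high Xist, open for low) and each bar the mean with its SD (n = 4). Both filled 22 C points lie above both open 22 C points for Csf1r, Adgre1, Lyve1 and Timd4, while all 4 Gpnmb points at 4 C lie above all at 22 C.

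Markers of several other cell types, like the macrophage genes, were higher in the last 2 than in the first 2 libraries at 22 C. Summed growth factor and pan-macrophage genes read 6162, 3245, 6487 and 5568 at 4 C and 4282, 3664, 11589 and 8362 at 22 C. Progenitor markers read 17155, 9635, 21987 and 18162 at 4 C and 11873, 14911, 43854 and 33310 at 22 C, and mast cell markers 465, 126, 787 and 450 at 4 C and 143, 127, 608 and 715 at 22 C. Skeletal muscle markers read 38175, 17, 1264 and 13208 at 4 C and 100, 105, 54864 and 24438 at 22 C. Epithelial markers read 2530, 8, 8672 and 7040 at 4 C and 255, 36, 4519 and 3377 at 22 C. B cell markers did not follow that split, with 16, 18, 28 and 140 at 4 C and 1404, 43, 1994 and 141 at 22 C. Dendritic cell markers, 3 of 7 of which fell, read 3016 to 5273 at 4 C and 6981 to 16185 at 22 C, and thermogenic adipocyte markers, 3 of 7 of which rose, 13892 to 61464 and 1301 to 4522. Blood endothelial markers read 3074 to 4010 at 4 C and 4226 to 4503 at 22 C, with 0 of 5 called. The part of these cells was not tested. Of 63 further myeloid genes tested, 2 passed, no larger a share than the 4.47% of all genes. Lamp2, a lysosomal membrane protein, rose to 1430.5 ± 213 at 4 C, against 801 ± 90.7 at 22 C, and Csf2ra, a receptor chain for GM-CSF, fell to 118 ± 16.9 at 4 C, against 243 ± 70.6 at 22 C (SD, n = 4 each, limma adjusted p = 0.0234 and 0.0438).

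The log2 ratio of Gpnmb to Csf1r averaged -1.48 ± 0.32 at 4 C and -2.85 ± 0.53 at 22 C, and that of Timd4 to Csf1r -5.36 ± 0.20 and -3.56 ± 0.57 (SD, n = 4 each). For Mrc1 the ratio averaged -0.47 ± 0.10 at 4 C and -0.23 ± 0.11 at 22 C. None of the 3 ratios overlapped between the temperatures, with -1.79 to -1.15 at 4 C and -3.42 to -2.16 at 22 C for Gpnmb. For Mrc1 the groups nearly touched, with -0.558 to -0.371 at 4 C and -0.365 to -0.097 at 22 C. The ratios of the other 3 genes did overlap, with averages of -6.10 ± 0.58 at 4 C and -5.58 ± 0.30 at 22 C for Trem2, -1.03 ± 0.50 and -0.48 ± 0.94 for Lgals3, and -6.79 ± 0.93 and -5.22 ± 1.38 for Ly6c2. These ratios were given no test, and the share of all genes with separate ratios was not computed.

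Lyz2, Fcgr3 and Ly6c2 have near-identical relatives with which reads can be shared, so their values are uncertain. Lyz1, which encodes a lysozyme close to that of Lyz2, rose with it in TrkA Th-cre mice (0.66, limma adjusted p = 0.0162) and in Prx1-cre mice at 9 weeks (1.13, adjusted p = 0.0441). Fcgr2b, close to Fcgr3 in its outer domains, rose in Prx1-cre mice at 9 weeks (1.14, adjusted p = 0.0385). Ly6c1, the relative of Ly6c2 made by endothelium, passed in none of the 5 comparisons.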

How the data were processed

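Per the labels' protocols, poly(A) RNA was read with a stranded kit. The deposited signal values are counts per gene that the authors normalized in 5 separate tables; kallisto, DESeq2 and mm10 are named in the submitters' processing notes, without versions in the sources used here. They are not whole numbers: 6.23 to 70.3% of low values in a library were whole multiples (tolerance 0.02) of the estimated worth of 1 read, so no count test was run and depth estimates are rough. Arms were tested within a table on log2(value + 1) with limma 3.58.1 in R 4.3.3, using its mean-variance trend, for genes at 10 or more in a number of libraries no lower than the size of the smaller group. P-values were adjusted by Benjamini-Hochberg over all genes tested, with 0.05 as the threshold. The pseudocount understates the fold changes of low genes.

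Symbols came from the RefSeq gene table (21 of 22622 identifiers matched none), and promoters from RefSeq on GRCm38.p6. Genes named in full were those past the threshold (with over 8, the 8 smallest p and the largest change of each group of genes) and a fixed panel of 9: Csf1r, Adgre1, Lyz2, Trem2, Gpnmb, Mrc1, Lyve1, Ly6c2 and Csf1. Other genes are named with values chosen after these were seen. The genes, lists and tests were chosen with earlier results of these data known. Bcl6 effects were compared across tables by the difference of log2 fold changes over its SE, with a t reference. Columns at P25 carry a letter and number matching no sample title, by which libraries are named. Since no label states that samples are separate animals, the p-values reflect the spread between samples, which may be technical. The level of the gene targeted with Th-cre is not reported here. The test was tested on simulated data. Alternatives were other scalings, library weights, filters at 0 and 50, pseudocounts of 0.5 and 5, a covariate for Xist (high above 500), a replicate block and each library left out in turn. Figures were drawn with matplotlib 3.10.9.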

Additional observations from a re-analysis of the deposited data

Results flagged for a closer look

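Of 140 groups of values examined, 4 hold a library far from the others of its group, and chance alone flags about 1 in 20 such groups. C1qb was low in the third wild-type library at P28 and 22 C, with 444.8 where the other 3 libraries had 579 to 606. The same library, in the scale of the TrkA table, had 394 where the others had 511 to 533; these are 2 readings of 1 library. Mpeg1 was high in the fourth Prx1-cre library at 9 weeks and 4 C, with 1829 where the others had 1078 to 1199. Lgals3 was low in the third floxed library at 9 weeks and 4 C, with 1218.5 where the others had 1964 to 2107; that library also holds the highest summed skeletal muscle markers of its table, at 644089. The cause was not tested for any of them.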

How the results depend on the processing

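At P28, 30 C against 22 C, the 5 genes called became 1 with upper-quartile scaling, 2 with no filter, 3 with an Xist covariate and 0 to 3 with 1 library left out. With 1 library left out the count was 4 to 14 in TrkA Th-cre against wild type, 0 to 1 at P25, 16 to 25 for Prx1-cre against floxed at 9 weeks and 0 to 2 for 4 C against 22 C at 9 weeks. In the last, it was 8 with an Xist covariate, 6 in low-Xist and 10 in high-Xist libraries. For the difference of the Bcl6 effect between ages it was 1 with library weights and 1 with a normal reference. The cause was not tested. The fits within an Xist class or a column letter were chosen after seeing the data.

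With a replicate block the calls numbered 1 at P28 for 30 C against 22 C, 8 for TrkA Th-cre, 20 for Prx1-cre at 9 weeks and 5 for 4 C against 22 C. In no table did each same-numbered pair of libraries deviate together (correlation over 0.1). For 4 C against 22 C at 9 weeks, pairs 2, 3 and 4 did, at 0.77, 0.50 and 0.51, while pair 1 had -0.26. Differently numbered libraries there reached 0.64. No label states pairing, so whether the numbers pair samples is not known. At P25 no block could be fitted, since the columns carry no sample numbers shared with the labels. An Xist covariate was not run at 9 weeks for Bcl6, where all libraries have high Xist.

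Signs turned for genes that had not passed. At P25, Trem2 had -0.13 in libraries lettered F. For 4 C against 22 C, Csf1r had -0.016 with upper-quartile scaling, -0.064 with quantile normalization and -0.51 in high-Xist libraries. Library weights gave 0.41 for Adgre1, 0.39 for Lyz2, 0.43 for Mrc1, 0.81 for Lyve1 and 0.12 for Trem2, and low-Xist libraries 0.35 for Adgre1, 0.34 for Lyz2, 0.34 for Mrc1 and 0.92 for Lyve1. With 1 library left out, 4 C against 22 C ran from -0.25 to 0.33 for Csf1r, -0.57 to 0.26 for Lyve1, -0.49 to 0.12 for Lyz2 and -0.49 to 0.084 for Mrc1. At P28, 30 C against 22 C ran from -0.082 to 0.15 for Gpnmb, -0.41 to 0.13 for Ly6c2 and -0.018 to 0.23 for Lyve1. At P25 it ran from -0.044 to 0.67 for Ly6c2 and -0.070 to 0.69 for Trem2, and for Prx1-cre at 9 weeks from -0.38 to 0.13 for Lyve1. Depth limits Fcgr4 and Trem2 at P28, whose values lie near the minimum for testing.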
